A study of Drosophila melanogaster with 3 samples.

Results

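The Drosophila genes for small nuclear RNAs (snRNAs) and small nucleolar RNAs (snoRNAs) were examined for binding of a tagged Dad protein in embryos. The members were the genes on the 6 chromosome arms 2L, 2R, 3L, 3R, 4 and X whose symbol begins with snRNA: or snoRNA: in the Ensembl annotation. They numbered 289 of 17896 genes, of which 32 were snRNA genes and 257 were snoRNA genes. Chromatin came from whole embryos of mixed sex, aged 0 to 24 h, of a transgenic line that stably expresses Dad with GFP at its C-terminus, and fragments bound by the fusion protein were pulled down through the GFP tag for sequencing. All 3 biological replicates form 1 group, with no second genotype, treatment or age, so no test between conditions was possible. Dad is the inhibitory Smad of the Dpp (BMP) signalling pathway. In whole embryos of pooled ages, binding in few cells and weak binding in many cells cannot be told apart.

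snRNAs are the RNA cores of the spliceosome: U1 pairs with the start of an intron, U2 with its branch point, and U4, U5 and U6 join them before catalysis, while U11, U12, U4atac and U6atac serve a rare class of introns. Insect snRNA genes carry their own promoters, built on a proximal sequence element (PSEA) that is bound by the SNAPc complex; RNA polymerase II transcribes most of them, and RNA polymerase III transcribes U6, U6atac and 7SK, whose promoters also hold a TATA box. snoRNAs guide the chemical modification of ribosomal RNA. Box C/D snoRNAs direct ribose methylation and box H/ACA snoRNAs direct pseudouridylation. Most fly snoRNAs have no promoter of their own. They are cut out of introns of a host gene, often one for a ribosomal protein, or of a noncoding U snoRNA host gene (Uhg), so the start site that makes them is that of the host.

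The authors' optimal list held 3392 peaks on the 6 arms, and their longer pooled list held 30000 regions, many of them weak. A gene was counted as having a peak when the summit of an optimal peak lay within 500 bp of it. By this measure 6 of 32 snRNA genes (18.8%, 95% Wilson interval 8.89 to 35.3) and 15 of 257 snoRNA genes (5.84%, 3.57 to 9.40) had a peak. The share among the other noncoding genes of at most 500 bp was 4.76% (89 of 1869), and among all genes, most of them far longer, it was 20.1%. The snoRNA share therefore lay near that of other short noncoding genes, and its count moved with the window, to 5 within 250 bp and 50 within 1000 bp. The interval of the snRNA share lay above it, although it rests on 6 genes and 1 of their peaks serves a pair of neighbours. With the pooled list, 18 of 32 snRNA genes (56.2%) and 104 of 257 snoRNA genes (40.5%) had a region, against 34.8% of the other short noncoding genes.

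The promoters of the 6 snRNA genes with a peak are shown first, followed by 6 genes without one, 1 from each of the U1, U2, U5, U6, 7SK and U7 types, because the element that defines an snRNA promoter can be read directly in both sets. Each run holds the 70 bases before the annotated start site and the first 10 bases of the gene, 5′ to 3′ on the gene's strand, from the RefSeq sequence of the dm6 assembly (Release 6). Capitals mark the PSEA core ATTCNCAA and, in the 40 bases before the start, TATAAA or TATATA.
snRNA:7SKa (chr3R:7474987-7475066, minus strand): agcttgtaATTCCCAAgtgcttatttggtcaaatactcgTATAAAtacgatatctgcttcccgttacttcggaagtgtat
snRNA:U2:34ABb (chr2L:13215769-13215848, plus strand): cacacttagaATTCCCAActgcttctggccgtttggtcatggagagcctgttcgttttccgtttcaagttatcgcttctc
snRNA:U6:96Ab (chr3R:24556622-24556701, plus strand): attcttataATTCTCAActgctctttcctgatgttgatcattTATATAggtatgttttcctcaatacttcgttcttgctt
snRNA:U6:96Ac (chr3R:24557145-24557224, plus strand): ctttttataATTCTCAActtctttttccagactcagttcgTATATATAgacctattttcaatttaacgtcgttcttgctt
snRNA:U1:95Ca (chr3R:23859621-23859700, minus strand): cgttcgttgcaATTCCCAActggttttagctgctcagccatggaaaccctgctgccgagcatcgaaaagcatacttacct
snRNA:U5:63BC (chr3L:3090731-3090810, plus strand): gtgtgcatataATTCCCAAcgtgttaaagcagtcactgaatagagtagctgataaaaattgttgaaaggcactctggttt
snRNA:U1:95Cb (chr3R:23827800-23827879, plus strand): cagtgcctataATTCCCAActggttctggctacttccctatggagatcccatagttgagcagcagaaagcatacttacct
snRNA:U2:14B (chrX:16254602-16254681, plus strand): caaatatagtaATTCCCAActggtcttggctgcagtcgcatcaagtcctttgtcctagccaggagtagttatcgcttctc
snRNA:U5:38ABa (chr2L:19812065-19812144, minus strand): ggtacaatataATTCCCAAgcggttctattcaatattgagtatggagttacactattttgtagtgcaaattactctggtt
snRNA:U6:96Aa (chr3R:24556018-24556097, plus strand): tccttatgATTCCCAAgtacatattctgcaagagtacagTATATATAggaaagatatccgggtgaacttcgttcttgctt
snRNA:7SKb (chr3R:23432799-23432878, plus strand): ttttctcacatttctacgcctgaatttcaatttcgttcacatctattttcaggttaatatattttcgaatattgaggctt
snRNA:U7 (chr3L:3593753-3593832, plus strand): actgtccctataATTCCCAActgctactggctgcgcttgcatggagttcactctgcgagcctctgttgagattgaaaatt

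The PSEA core was found within 100 bases before the start in 31 of 32 snRNA genes on the gene's strand, 6 of 6 with a peak and 25 of 26 without one, against 1.06% of the other 17864 genes in the same window. The letters of this core were chosen after the snRNA promoters had been read, so its presence in them is a description. Its first base lay between 65 and 56 bases before the start, with the median at 59. The exception was 7SKb. TATAAA or TATATA stood in the last 40 bases of 5 snRNA genes, namely 7SKa, the 3 U6 genes and U6atac, against 10.5% of the other genes; these letters can overlap, and a gene was counted once. These letters were present in 3 of the 6 genes with a peak (7SKa, U6:96Ab and U6:96Ac, the last 2 sharing a peak) and in 2 of the 26 without one (U6:96Aa and U6atac). The polymerase II genes U1:95Ca, U2:34ABb and U5:63BC also had a peak, while other copies of U1, U2 and U5 with the same core had none.

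The strongest snRNA peak lay on 7SKa (3R), the gene for the RNA that holds the elongation kinase P-TEFb inactive. The authors' signal value for it was 191.5 in the optimal list, which placed it at rank 748 of 3392. The peak covered chr3R:7474622-7475031 in dm6, and its summit lay inside the gene, 169 bp downstream of the start. To set replicates side by side, each replicate's signal was divided by its own median over the optimal peaks, a ratio called relative signal here. At 7SKa the relative signal was 1.35, 1.56 and 1.47 in replicates 1, 2 and 3 (mean 1.46 ± 0.106, SD, n = 3), so every replicate stood above its own median peak. A second, weaker peak with a signal of 91.8 lay 422 bp from 7SKa and 350 bp from the start of its neighbour CG1142. The second 7SK gene, 7SKb, had no region in the pooled list or in any replicate.

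At U2:34ABb (2L), a copy of the branch-point snRNA U2, the peak had a signal of 155.1 (rank 1076) and its summit lay inside the gene, 121 bp from the start. Its relative signal was 1.30, 1.11 and 1.12 in replicates 1, 2 and 3 (mean 1.18 ± 0.107, n = 3). U1:95Ca (3R), a copy of the U1 snRNA, had a signal of 131.5 (rank 1477), and the summit lay 4 bp upstream of its start. The values were 1.22, 1.06 and 0.878 (mean 1.05 ± 0.170, n = 3). Both peaks lay near or above the median optimal peak in every replicate. The nearest start of any gene outside the members lay 30418 bp from the U1:95Ca summit, in Pli, and 610 bp from the U2:34ABb summit, in kek4.

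U6:96Ab and U6:96Ac, neighbouring copies of the polymerase III snRNA U6 on 3R, shared 1 peak with a signal of 139.8 (rank 1312). Its summit lay between them, 114 bp upstream of the U6:96Ac start and 409 bp downstream of the U6:96Ab start. Relative signal was 1.46 in replicate 1, 0.762 in replicate 2 and 0.769 in replicate 3 (mean 0.996 ± 0.400, n = 3), so replicate 1 stood apart. U5:63BC (3L), a copy of the U5 snRNA that aligns exons, had the weakest of the main peaks, with a signal of 102.5 (rank 2262) and the summit 36 bp inside the gene. Its values were 0.426, 1.43 and 0.652 (mean 0.835 ± 0.525, n = 3), and here replicate 2 stood apart: without it the mean was 0.539. Over the 6 peaks near snRNA genes the median signal was 135.7, against 121.7 over all 3392 optimal peaks.

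**Figure D1:**
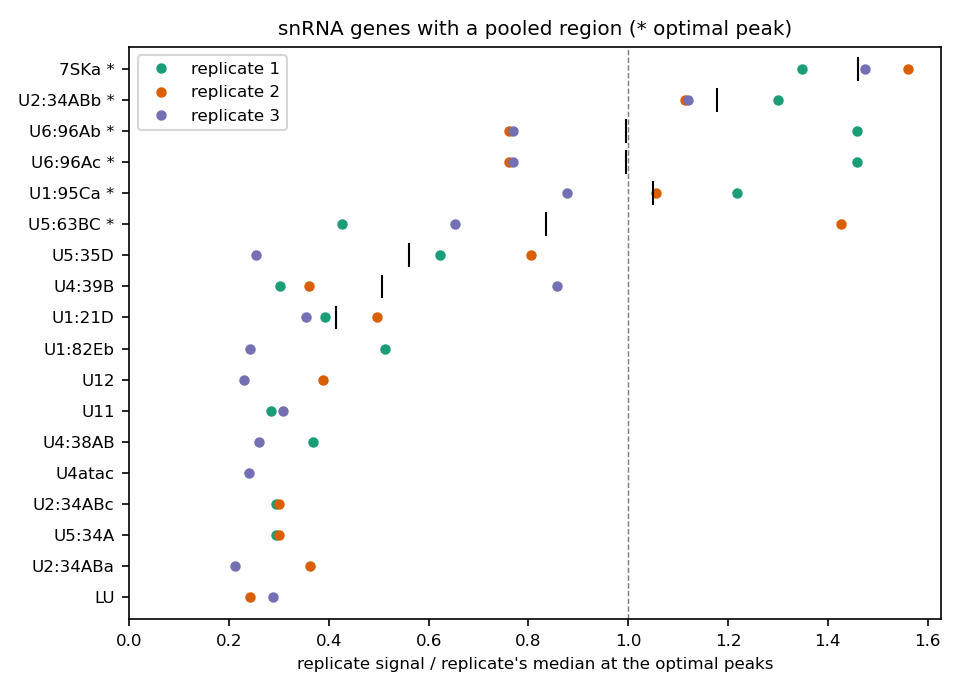
Relative signal (replicate signal over that replicate's median at the optimal peaks, horizontal axis) of the 18 snRNA genes with a pooled region, 1 row a gene. Points are replicates, vertical bars are means where all 3 replicates had a region, and the dashed line is the median optimal peak; 7SKa and U2:34ABb lie right of it in all 3 replicates, while the genes without an optimal peak lie left of it in every replicate shown.

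Another 12 snRNA genes had a region in the pooled list only. The highest of these were U5:35D with a signal of 73.1, U4:39B with 72.4, U1:21D with 54.4, U1:82Eb with 42.1 and U12 with 35.4. At U5:35D the relative signal was 0.622, 0.805 and 0.255 in replicates 1, 2 and 3, and at U4:39B, a copy of the U4 snRNA that keeps U6 inactive until splicing, it was 0.302, 0.360 and 0.857. U1:21D had 0.392, 0.496 and 0.354. Each of these values was under the replicate's median optimal peak. The other 14 snRNA genes had no pooled region: 7SKb, U1:95Cb, U1:95Cc, U2:14B, U2:38ABa, U2:38ABb, U4:25F, U5:14B, U5:23D, U5:38ABa, U5:38ABb, U6:96Aa, U6atac and U7, the last of which serves histone mRNA 3′ processing. Peaks and their absence were thus found among copies of the same RNA: 1 of 5 U1 genes, 1 of 6 U2 genes, 1 of 7 U5 genes, 2 of 3 U6 genes and 1 of 2 7SK genes had an optimal peak, and 0 of 3 U4 genes did.

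Several copies of U1, U2 and U6 share long identical stretches, so many short reads from the gene body cannot be placed on 1 copy. No 50-base stretch inside U1:95Ca, U2:34ABb, U6:96Ab or U6:96Ac was unique in the genome, yet 85.7% to 90.3% of the stretches in these genes with 500 bp of flank on each side were. With flanks, the median unique share was 90.2% over the 6 genes with a peak, 96.1% over the 12 with a pooled region only and 95.4% over the 14 with none. The 14 genes without a region included fully unique ones such as 7SKb, U4:25F, U6atac and U7. How the authors' pipeline treated reads with several placements is not given in the sources used here, and its part in these counts was not tested.

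Of the 257 snoRNA genes, 230 lay within an intron of a gene on the same strand, 10 of them within introns of 2 genes, and 27 had no such host. The 15 snoRNA genes with a peak shared 13 peaks, and no optimal summit lay inside a snoRNA gene. Of those 13 peaks 8 stood at the start site of the host, with the snoRNA in the first part of the gene. The strongest was at Uhg4 (2R), a noncoding host of 7 snoRNA genes, with a signal of 352.4 (rank 181). It lay within 500 bp of the orphan Or-aca5, an H/ACA snoRNA by its symbol, and of the pseudouridylation guide Psi28S-2949, and its relative signal was 3.16, 2.66 and 2.52 in replicates 1, 2 and 3. Next came Or-CD11a in RpL28 with 247.6, Psi28S-1232 in RpL17 with 246.9, Psi18S-1275 in RpS29 with 220.4 and Me28S-A774b in RpS12 with 189.7. Each of these 5 summits was nearer to the host's start site than to the snoRNA gene, at most 76 bp from the start.

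Only 5 of the 13 peaks lay away from a host start. The strongest of them had a signal of 193.9 and lay inside egr, the fly TNF ligand gene, 479 bp from Or-ACA6 and 449 bp from Or-CD13. Neither snoRNA gene had a host on its strand. The peak near snoRNA:185, which also has no host, had a signal of 135.5 and a summit 37 bp upstream of that gene, with relative signals of 0.588, 1.29 and 1.23 in replicates 1, 2 and 3. A tRNA:Glu-TTC gene started 342 bp from the same summit. The peak near Or-CD4 had a signal of 135.3 and lay 3154 bp from the start of its host Uhg5. Another was near Or-ACA9 (106.7), inside an intron of AdamTS-A. The last of the 5 lay near the start of a coding gene that does not host the snoRNA.

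The snoRNA genes were also grouped by symbol. Of those named for a site in 18S or 28S ribosomal RNA, 4 of 75 methylation guides and 4 of 106 pseudouridylation guides had a peak within 500 bp. So did 6 of 24 orphans and 1 of 52 snoRNAs with other symbols, the 52 including Me5.8S-G74 and MeU6-A47. In the same order, the host start carried a peak for 35 of 71, 59 of 101, 12 of 15 and 16 of 43 genes with a host. Many snoRNA genes share a host and so share its peak. In all, 122 of the 230 snoRNA genes in an intron (53.0%) had a host with a peak at a start site. A peak at any annotated start of a host counted, also where that start was far from the snoRNA gene. In Msp300, for example, the snoRNA gene lay 50634 bp from the nearest host start. Whether the bound start is the one that makes the snoRNA was not tested. The median distance from a snoRNA gene to the nearest annotated start of its host was 1422 bp, and 33 of the 230 lay within 500 bp. This distance was taken in either direction. The nearest start can thus lie downstream of the snoRNA gene, as in drn, and need not be the start that makes it.

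The 230 genes had 79 host genes, and 43 of these (54.4%, 95% Wilson interval 43.5 to 65.0) had an optimal peak within 500 bp of a start site. Among all 12771 genes with an intron the share was 19.2%. In the pooled list 70 of 79 hosts had a region, against 57.8% of the genes with an intron. The share differed between kinds of host. Of the hosts that encode a ribosomal protein, 24 of 29 had a peak (82.8%, 65.4 to 92.4), and of the ribosomal protein genes with an intron but no snoRNA, 42 of 53 did (79.2%, 66.5 to 88.0). These intervals overlap over most of their length, and a difference between hosts and other ribosomal protein genes was not detectable at this number of genes. Of the other coding hosts 16 of 40 had a peak (40.0%, 26.4 to 55.4), against 19.8% of 11697 other coding genes with an intron and no snoRNA. Of the noncoding hosts 3 of 10 did (30.0%, 10.8 to 60.3), against 6.69% of 942 noncoding genes with an intron and no snoRNA. Only 1 of these 3, Uhg4, had a region among the top 3392 of all 3 replicates. Over the 3 the median signal was 96.7 and the lowest 83.8, against a median of 121.7 over all optimal peaks.

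**Figure D2:**
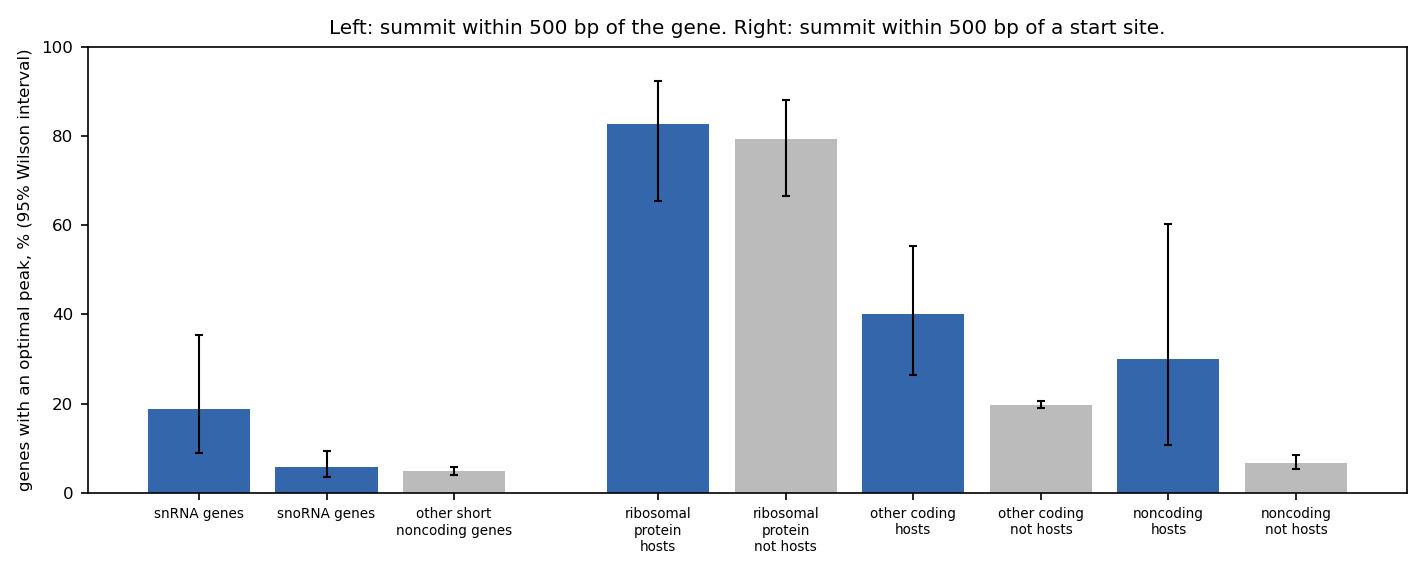
Share of genes with an optimal peak (vertical axis, %), with 95% Wilson intervals as error bars; blue bars are members or hosts, grey bars the genes they are set beside (on the right, genes with an intron that hold no snoRNA). Ribosomal protein hosts (82.8%) and ribosomal protein genes with an intron but no snoRNA (79.2%) stand together above all other groups, and the snoRNA genes (5.84%) stand beside other short noncoding genes (4.76%).

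The hosts with the strongest start-site peaks were mostly ribosomal protein genes. RpL23A (3L), which encodes a protein of the large ribosomal subunit and hosts 3 snoRNA genes, had a signal of 528.7 (rank 66). The summit lay 108 bp upstream of its start. The same 3 snoRNA genes also lie in introns of the noncoding Uhg7, which had no optimal peak and a pooled signal of 27.1. At RpL23A the relative signal was 4.98, 3.77 and 3.35 in replicates 1, 2 and 3 (mean 4.03 ± 0.844, n = 3). RpL14 (3L), of the same subunit, had 499.2 (rank 79) and relative signals of 4.95, 3.81 and 3.14 (mean 3.96 ± 0.917, n = 3). Both lay far above the median peak in every replicate. A divergent gene, Nelf-E, started 77 bp from the RpL14 summit, and the start of RpL14 itself was 50 bp away.

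RpS20 (3R), of the small subunit, had a signal of 361.7, with relative signals of 2.84, 2.80 and 2.83 (mean 2.82 ± 0.0210, n = 3). The 3 replicates hardly differed there. Its summit was 188 bp from the RpS20 start and 145 bp from that of CG17271 on the other strand. RpL13A had 341.1, RpL11 had 314.5, RpL30 had 314.4 and RpS16 had 282.7, with mean relative signals of 2.65 ± 0.557, 2.53 ± 0.551, 2.43 ± 0.420 and 2.20 ± 0.466 (SD, n = 3 each). Neighbours in that order did not differ beyond their spread between replicates.

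Only 3 of the 10 strongest were not ribosomal protein genes. Stt3A (X), which encodes the catalytic subunit of oligosaccharyltransferase, had 483.3 and relative signals of 3.09, 3.72 and 4.27 (mean 3.70 ± 0.589, n = 3), but its summit lay 389 bp upstream and was nearer to the start of bves, at 220 bp. Msp300 (2L), a nesprin that links nuclei to the cytoskeleton, had 441.5 and relative signals of 4.01, 3.06 and 3.30 (mean 3.46 ± 0.493, n = 3), at 365 bp upstream. Uhg4 is described above. Over the 43 hosts with a peak, the median signal was 169.8. Among them Stt3A, RpS20 and Irbp had a summit nearer to the start of another gene than to their own. In lola (signal 251.2) the summit lay at the 500 bp limit, and the relative signal of the replicates' regions within that limit was 0.266, 0.824 and 0.526.

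The start sites of 8 of the hosts with strong peaks are shown because fly ribosomal protein genes are known for an initiator made of pyrimidines. Each run holds 50 bases before and 20 bases from the annotated start nearest the summit, 5′ to 3′ on the gene's strand, from the same RefSeq assembly. Capitals mark the longest run of C and T that touches the 5 bases on either side of the start.
RpL23A (chr3L:1668635-1668704, minus strand): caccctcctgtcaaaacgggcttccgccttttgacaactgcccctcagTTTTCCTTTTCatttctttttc
RpL14 (chr3L:8600956-8601025, plus strand): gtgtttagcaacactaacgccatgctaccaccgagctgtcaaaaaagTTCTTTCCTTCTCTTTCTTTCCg
RpS20 (chr3R:20822131-20822200, plus strand): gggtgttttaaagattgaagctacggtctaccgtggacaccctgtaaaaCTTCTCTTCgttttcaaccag
RpL13A (chr3R:5624424-5624493, plus strand): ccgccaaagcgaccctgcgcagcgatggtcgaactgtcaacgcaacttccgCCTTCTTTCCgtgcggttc
RpL30 (chr2L:19009287-19009356, minus strand): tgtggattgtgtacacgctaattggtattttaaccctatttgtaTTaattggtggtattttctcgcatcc
RpL28 (chr3L:3222941-3223010, minus strand): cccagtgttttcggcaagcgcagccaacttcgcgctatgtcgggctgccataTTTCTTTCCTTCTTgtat
Stt3A (chrX:21053918-21053987, minus strand): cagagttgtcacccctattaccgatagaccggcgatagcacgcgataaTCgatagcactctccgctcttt
Msp300 (chr2L:5108462-5108531, plus strand): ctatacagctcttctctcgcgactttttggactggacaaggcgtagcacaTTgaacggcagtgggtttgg

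A run of at least 8 such bases stood at the start of 15 of 29 ribosomal protein hosts (51.7%), of 3 of 50 other hosts (6.0%) and of 3.71% of all genes with an intron. It was present in 13 of 43 hosts with a peak (30.2%) and in 5 of 36 without one (13.9%), a contrast that cannot be told apart from the kind of host. RpL23A, RpL14, RpS20, RpL13A and RpL28 show it. The ribosomal protein gene RpL30, whose peak is stronger than that of RpL28, does not, and neither do Stt3A and Msp300. Other promoter letters were counted on both strands from 100 bases before to 50 bases after the first start. The DRE letters TATCGATA were present in 23.3% of the hosts with a peak, in 13.9% of those without one and in 7.69% of the genes with an intron. GGCGCC, a GC-rich core known from Mad binding sites, was present in 2.33%, 2.78% and 2.47% of these groups. GGTCACAC, the core of the promoter element Motif 1, stood in 9.3% of the hosts with a peak, 11.1% of those without one and 6.77% of the genes with an intron. For CTCTTTT these shares were 2.33%, 8.33% and 3.48%, and for the E-box CAGCTG they were 4.65%, 8.33% and 12.1%. GAGAGAG, the GAGA factor letters, stood in 0 of 43 hosts with a peak, 0 of 36 without one and 3.07% of the genes with an intron. Within 100 bp of the summit, TATCGATA stood in 15.2% of the 46 peaks at host starts, against 6.49% of all optimal peaks, GGTCACAC in 6.52% against 3.6%, and CTCTTTT in 8.7% against 5.54%. GGCGCC stood in 2.17% of the host peaks against 4.07% of all, CAGCTG in 2.17% against 11.4%, and GAGAGAG in 2.17% against 4.1%. The PSEA core stood in 0 of the 46 and in 4.07% of all optimal peaks. CTCTTTT was thus less common in the start-site window of hosts with a peak than of genes with an intron, but more common around host summits than around all summits, on counts of 1 host and 4 peaks. Matches to different motifs were counted separately even where they overlapped, and a match is a description of letters only.

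**Figure D3:**
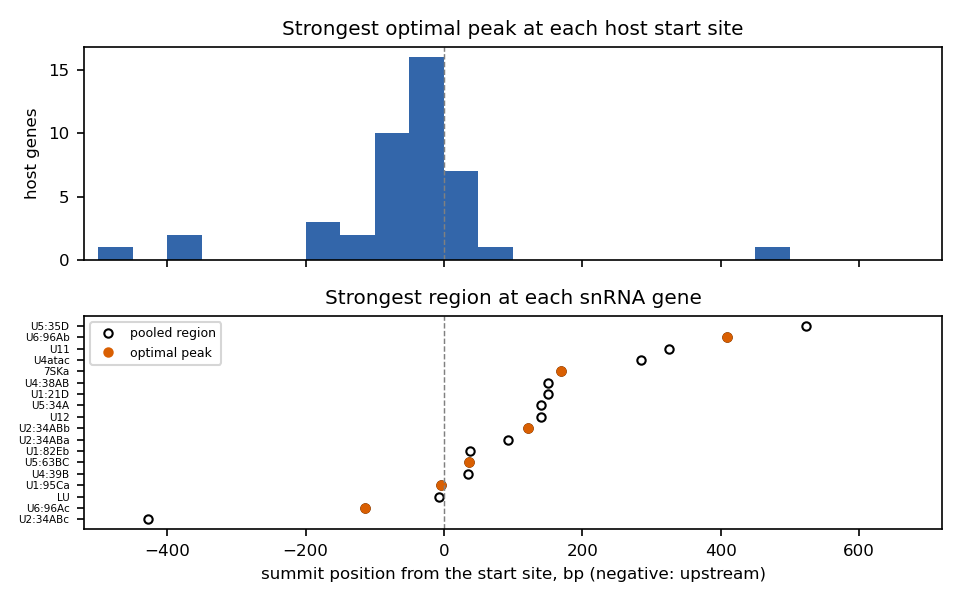
Top: number of the 43 host genes (vertical axis) by position of the strongest optimal summit from the start site (horizontal axis, bp). Bottom: position of the strongest pooled region's summit at each of 18 snRNA genes, filled where it is an optimal peak; most host summits lie just upstream of the start, and snRNA summits lie on both sides of it.

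Summits at hosts were close to the start. Over the 46 optimal peaks at host start sites, the median distance to a start was 50.5 bp, and 8 of these peaks were also within 500 bp of a snoRNA gene. Of the 43 hosts with a peak, 33 had a region among the top 3392 of all 3 replicates. Taking the top 3392 regions of each replicate in place of the optimal list gave 44, 45 and 44 hosts in replicates 1, 2 and 3 (mean 44.3 ± 0.577, n = 3). The number of hosts was thus steady, and that of snoRNA genes with a region of their own was not, at 17, 28 and 12 (mean 19 ± 8.18, n = 3). For snRNA genes the numbers were 5, 7 and 7.

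The number of snoRNA genes that a host carries did not order the hosts by binding. Of the 15 hosts of 5 or more snoRNA genes 8 had a peak (53.3%), of the 24 hosts of 2 to 4 it was 17 (70.8%), and of the 40 hosts of 1 it was 18 (45.0%). The 3 largest had none: Arpc2, an Arp2/3 actin nucleator subunit with 17 snoRNA genes, Uhg1, a noncoding host with 16, and dom, a chromatin remodelling ATPase with 15. Their pooled signals were 45.6, 62.9 and 78.4, and their mean relative signals 0.492 ± 0.110, 0.460 ± 0.0500 and 0.642 ± 0.146 (SD, n = 3 each). Each value in each replicate was under the median optimal peak.

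Next in size was RpS5a, a ribosomal protein gene with 14 snoRNA genes, which had a peak of 178.2 and relative signals of 1.32, 1.51 and 1.37 (mean 1.40 ± 0.0985, n = 3). Uhg5 with 11 and Sf3b3, a component of the U2 snRNP with 9, had pooled regions only, of 54.5 and 74.7. So did Hrb98DE, an RNA-binding splicing protein with 7 (57.9), and CR45184 with 5 (23.0). All 5 snoRNA genes of CR45184 also lie in introns of Sf3b3. Peaks were found at kra (126.6), a translation regulator with 8 snoRNA genes, and at RpS7 (97.7), Nop60B (91.4) and Uhg4 (352.4) with 7 each. They were also found at RpL28 (247.6), RpS16 (282.7) and CG10576 (84.2) with 5 each. Nop60B encodes the pseudouridine synthase of H/ACA particles and so both carries snoRNA genes and acts with their products.

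**Figure D4:**
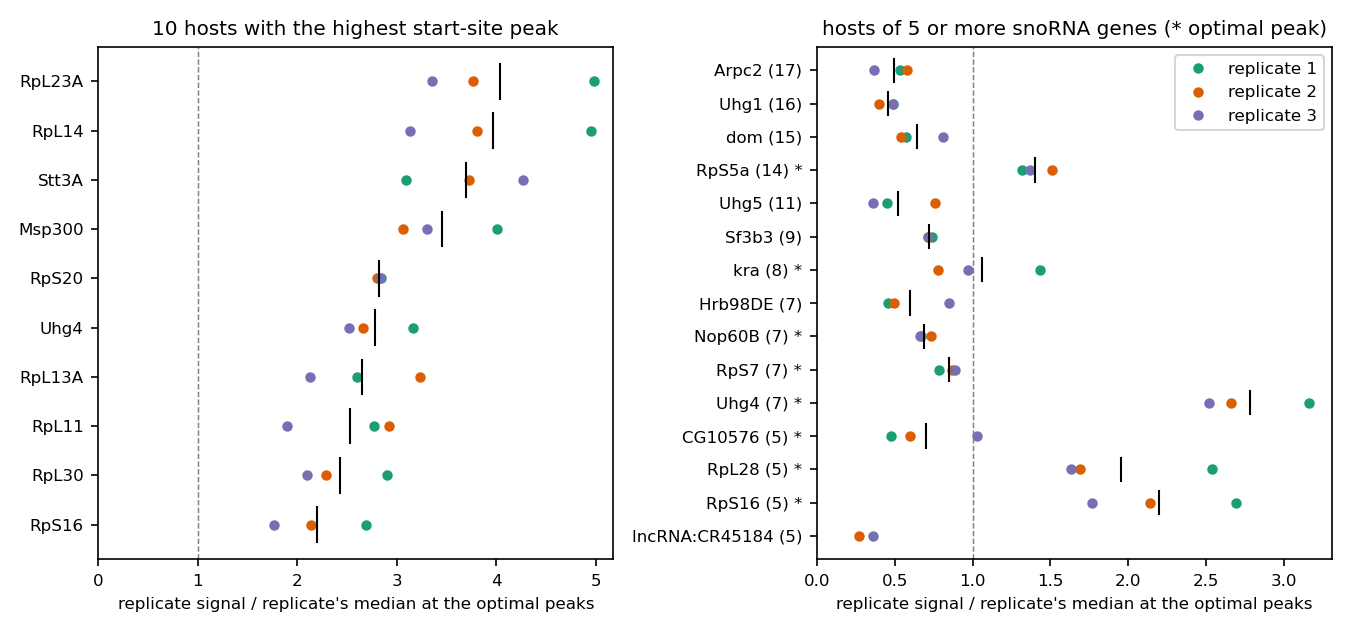
Relative signal (horizontal axis) at the start sites of the 10 hosts with the strongest peak (left) and of the 15 hosts of 5 or more snoRNA genes (right, number of snoRNA genes in brackets, largest first). Points are replicates, vertical bars are means of 3, and the dashed line is the median optimal peak; on the left all points lie right of it, and on the right Arpc2, Uhg1 and dom lie left of it.

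Genes whose proteins transcribe, process or partner these RNAs were taken from 10 lists with 62 entries, of which 58 matched a gene. An optimal peak stood at a start site of 21 of the 58 (36.2%), against 18.4% of all 13945 coding genes. Where replicate 1 or replicate 3 was left out and regions shared by the other 2 replicates were used, 12 of them had one. The share over all coding genes was not counted for those shorter lists. The largest signals were those of Bdp1 (512.4) and Brf (369.3), both subunits of TFIIIB, the factor that recruits RNA polymerase III. Bdp1 had relative signals of 4.11, 3.73 and 3.82 in replicates 1, 2 and 3, and Brf had 2.75, 3.04 and 2.93. None of the 3 SNAPc subunits, which bind the PSEA, had a peak. All 3 had a pooled region, with signals of 41.0 to 52.5, as did 57.8% of all genes with an intron, coding or not. The pooled share over all coding genes was not counted.

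Of 14 Integrator subunits, which cut the 3′ end of nascent snRNA, 7 had a peak, led by IntS6 (187.4), IntS9 (178.8), IntS10 (169.4) and defl (130.9). IntS6 had relative signals of 1.46, 1.63 and 1.33 and IntS9 had 1.82, 1.02 and 1.23. Of the 4 box C/D proteins only Fib, the methyltransferase fibrillarin and itself a snoRNA host, had one (141.1). Of the 4 box H/ACA proteins Nop60B (91.4) and NHP2 (100) did. Among the assembly factors rept (121.7), Nopp140 (97.7) and pont (85.0) did, of 5 listed. The Sm ring proteins SmD3 (101.3) and SmB (82.9), 2 of 6 found, were joined by LSm1 (89.6), the U1 and U2 protein snf (89.0), the export factor Ars2 (112.1) and the assembly factor Smn (82.5). Of the 21 peaks, only those of Bdp1, Brf, Fib and 5 Integrator subunits (IntS6, IntS9, IntS10, defl and IntS11) had a signal above 121.7, the median of all optimal peaks.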

How the data were processed

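The ChIP-seq peak lists of 3 biological replicates, numbered as in the labels, were used. Per the file listings, each replicate and the pooled alignments gave the authors 30000 regions against a control, from which IDR (irreproducible discovery rate) left the optimal list. Which aligner, peak caller and IDR cutoff they used is not given in the sources used here. Per their listings, the deposited signal column is the caller's own value per region and is not scaled between libraries. The deposited −log10 q column has a ceiling of 3.871 in the pooled list, and the deposited summit offset gave the summit position. All 3392 optimal peaks recur in the pooled list with the same summit and signal. Read depth is unknown, and the control library was not used.

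Genes, introns and start sites came from Ensembl release 115, without pseudogenes and transposable elements. Arm names and lengths of the RefSeq Release 6 genome hold every dm6 region. A host is a gene on the same strand with an intron that holds the whole snoRNA gene. Each replicate's value is its strongest region with a summit within 500 bp. Wilson intervals (95%) cover counting error only and treat genes as independent, though neighbours share peaks. The 58 pathway genes include 3 matched through an older symbol. Named were all snRNA genes with a peak, the 5 others with the highest pooled signal, the 10 snoRNA genes and the 10 hosts with the highest signal, hosts of 5 or more snoRNA genes, and up to 4 genes per pathway list; lola, Irbp and the snoRNA genes beyond the 10 were named after their values were seen. Some single-gene results are not reported here. Members and lists were chosen with earlier results of these data known. The overlap search was tested on simulated data. Python 3.11.15, numpy 2.4.6, pandas 2.3.3, scipy 1.17.1 and matplotlib 3.10.9 were used. With 1 group no test was run. Alternatives were the window, the list, the match rule, host strand and leaving out each replicate.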

Additional observations from a re-analysis of the deposited data

How the results depend on the processing

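Of 54 alternative counts, 40 stayed within 1.5 times the reported count. The snoRNA count of 15 was the least stable: it was 5 within 250 bp, 50 within 1000 bp, 26 where any base of a peak could overlap the window, 28 in the pooled list at a −log10 q of at least 2 and 104 in the whole pooled list. The whole pooled list gave 18 snRNA genes, 70 hosts, 221 snoRNA genes by host and 52 pathway genes. In that list 34.8% of the other short noncoding genes had a region, and 57.8% of the genes with an intron had one at a start. At a −log10 q of at least 2 the pooled list gave 184 snoRNA genes by host and 32 pathway genes. With the 1696 strongest optimal peaks, 8 pathway genes had a peak. Where 1 replicate was left out, the top regions shared by the other 2 were fewer than the optimal peaks, and the pathway genes numbered 12 to 14, with 12 without replicate 1 and 12 without replicate 3. Hosts numbered 34 to 37, snRNA genes 5 to 6 and snoRNA genes 12 to 13. Shares over other genes were counted only with the 500 bp window in the whole optimal and pooled lists. The counts at other settings therefore have no such share beside them. No paired analysis was possible because the series holds 1 group. Leaving out a replicate moved 1 of 25 mean relative signals by more than 1.5 times, that of U5:63BC, to 0.539 without replicate 2. All 25 were larger when divided by the replicate's median over all its regions, a smaller divisor by construction. Signal values without read counts limit every comparison of single peaks.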
